A study of Mus musculus with 62 samples.

Results

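The skeletal myosin heavy chain genes Myh1, Myh2, Myh3, Myh4 and Myh8 were followed through RNA-seq, Ribo-seq and Disome-seq of mouse heart and through the first 2 assays in C2C12 cells. They were chosen by name, with 1 transcript per gene, as 5 of the 10476 genes in the table of counts. The table held 12 of their transcripts among 23877 transcripts. The study asked what RPL3L, a muscle-restricted form of the ribosomal protein RPL3, does in translation. Ribo-seq counts the mRNA fragments covered by single ribosomes, and Disome-seq counts those covered by a pair of stacked ribosomes. The hearts came from male C57BL/6J mice at 10 weeks of age, either WT or Rpl3l KO (Rpl3l-/-), the latter with exon 2 of Rpl3l deleted by CRISPR-Cas9 in the germ line and thus in every tissue. There were 4 mice per genotype in each assay. C2C12 is a mouse myoblast line, and its 3 groups were infected with retrovirus, selected with puromycin and grown as proliferating cells. They carried the empty vector (Control), RPL3 (RPL3 OE) or RPL3L (RPL3L OE), with 3 cultures each in RNA-seq and in Ribo-seq.

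Myosin heavy chains are the motor proteins of the thick filament. The head splits ATP and pulls on actin, and the long rod packs into the filament. In the mouse, Myh1, Myh2 and Myh4 encode the adult fast isoforms IIx, IIa and IIb, whereas Myh3 encodes the embryonic and Myh8 the perinatal isoform. These genes lie side by side on chromosome 11. The heart is built instead on Myh6 and Myh7, the alpha and beta cardiac isoforms, which descend from the same ancestral gene. Proliferating myoblasts have not yet built sarcomeres.

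All 5 genes lie on the plus strand of chromosome 11 in GRCm38. Myh3 occupied chr11:67078300-67102291, Myh2 chr11:67171220-67197514, Myh1 chr11:67200111-67224495, Myh4 chr11:67238029-67260446 and Myh8 chr11:67277124-67308634. Their coding lengths ran from 5811 to 5826 bases. Every transcript matched to the annotation was on the plus strand. Myh6 and Myh7, on the minus strand, thus had no counts among them and could not be analysed here for counts. All transcripts of Myh1, Myh2, Myh3 and Myh4 in the table carried the same counts within a gene.

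The coding sequences were alike enough that short reads could match several of these genes. Across aligned coding bases, Myh1, Myh2, Myh4 and Myh8 were 87.9% to 91.0% identical to each other. Myh3 was more distant, with 80.2% to 81.0% identity to the others. Against the cardiac gene Myh6 the 5 genes were 76.7% to 77.7% identical. The windows of 30 coding bases printed here are those with the most and the fewest matches to Myh6, from the GENCODE M21 transcripts on GRCm38. Capitals mark bases that differ from Myh6.
In the most alike window, part of the motor head, Myh6 lay at chr14:54959885-54959914 on the minus strand in exon 14.
Myh6: ttcaaccaccacatgttcgtgctggagcag
Myh1: ttcaaccaccacatgttcgtgctggagcag
Myh3: ttcaaccaccacatgttcgtgctggaAcag
Myh2, Myh4 and Myh8 were identical to Myh1 here. The window lay at chr11:67207477-67207506 in exon 15 of Myh1, at chr11:67180832-67180861 in exon 14 of Myh2 and at chr11:67088615-67088644 in exon 14 of Myh3. It lay at chr11:67246428-67246457 in exon 14 of Myh4 and at chr11:67288256-67288285 in exon 15 of Myh8.
In the most different window, part of the rod, Myh6 lay at chr14:54950101-54950130 on the minus strand in exon 27.
Myh6: taccgcgtgaagctggaagaagcccagcgc
Myh1: CTGAAGACCaagGAggaGgaaCAGcagcgG
Myh2: CTGAAGTCAaagGAggaGgaaCAGcagcgA
Myh3: GCcAgGgGCaagAATgaGgaGATGcagAgG
Myh4: GTGAAGACCaagGAggaGgaGCAGcagcgc
Myh8: CTGAAGAGCaagGAggaGgaGCAGcagcgG
This window lay at chr11:67215889-67215918 in Myh1, chr11:67190355-67190384 in Myh2, chr11:67095003-67095032 in Myh3, chr11:67254048-67254077 in Myh4 and chr11:67299319-67299348 in Myh8. It held 16 mismatches to Myh6 in each gene except Myh8, which had 17. Of 4409 windows of 30 bases compared, 98.4% were identical to Myh6 in 0 of the 5 genes.

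A ribosome footprint is close to 28 bases long, so identity was counted in windows of 28 coding bases. Myh8 had 79 windows that occur unchanged in Myh6 or Myh7, Myh4 had 56, Myh2 had 47, Myh1 had 42 and Myh3 had 37. Each gene has almost 5800 such windows, so the shares ran from 0.639% in Myh3 to 1.37% in Myh8. With up to 2 mismatches allowed, the shares ran from 10.3% in Myh3 to 12.2% in Myh2. Windows shared with another skeletal myosin gene (the 5 genes and Myh13, the extraocular isoform) were far more frequent. They made up 44.2% of the windows of Myh1, 42.6% of Myh2, 36.7% of Myh8, 33.9% of Myh4 and 12.6% of Myh3. Myh3 also had 42 windows that occur in annotated genes outside the myosin heavy chains compared, while Myh1, Myh2, Myh4 and Myh8 had 0. At 60 bases, 0 windows of the 5 genes were shared with Myh6 or Myh7. The study allowed reads mapping to several places in the alignment of Ribo-seq and Disome-seq, and it states no such setting for RNA-seq. The counts of the 5 genes are thus uncertain wherever sequence is shared. How such reads were divided between genes, and whether the assays differed in this, was not tested. In Myh1, the antisense gene Myhas overlaps the end of the gene, and although the RNA-seq kit keeps strand, the strand setting of the counting is not given in the sources used here.

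Total counts in heart RNA-seq ran from 3594696 to 14041366 in WT and from 10930435 to 22425296 in Rpl3l KO. They ran from 1606700 to 3192090 in heart Ribo-seq and from 39016 to 175747 in Disome-seq. In C2C12 they ran from 7647102 to 29746110 in RNA-seq and from 3167026 to 6093268 in Ribo-seq. Levels are given as CPM, the count scaled to 1000000 counts over the 23877 transcripts counted in the library. In this total each transcript of a gene was added separately, also where transcripts carried the same counts. Rpl3l itself ran from 401 to 516 CPM in WT heart RNA-seq and from 24.4 to 37.0 CPM in Rpl3l KO. In C2C12 it ran from 1996 to 2053 CPM in RPL3L OE against 0.168 to 0.572 CPM in Control. The tissue labels were checked on marker genes. Myl2, the ventricular light chain, averaged 15657 CPM in WT heart RNA-seq and 0.0560 CPM in Control C2C12. Myod1, the myoblast regulator, was at 0 counts in WT heart and averaged 76.4 CPM in Control C2C12.

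Heart RNA-seq held little RNA of any of these genes. Myh4 was highest, Myh1, Myh2 and Myh8 gave at most 20 counts in a library, and Myh3 gave 0 counts in all 8 libraries. Myh4, the IIb isoform of the fastest fibres, had 49, 18, 61 and 163 counts in the 4 WT hearts and 79, 153, 82 and 39 counts in the 4 Rpl3l KO hearts. In CPM this was 13.6, 4.08, 11.8 and 11.6 in WT and 5.86, 8.83, 3.66 and 3.57 in Rpl3l KO. The WT heart at 4.08 CPM lay within the Rpl3l KO range, so the groups overlapped. The mean was 10.3 ± 4.24 CPM (SD, n = 4) in WT and 5.48 ± 2.47 CPM (SD, n = 4) in Rpl3l KO. In tissue samples such as these, fewer cells of a type and less RNA per cell cannot be told apart. In edgeR's quasi-likelihood test (p-values adjusted by Benjamini-Hochberg), the log2 fold change of Myh4 was -0.86 (SE 0.36), with an unadjusted p of 0.0276 and an adjusted p of 0.999. Myh4 alone of the 5 genes averaged 10 or more counts, and 0 of 1 gene passed the threshold of 0.05, beside 0.0130% of the 15394 transcripts tested. At an unadjusted p under 0.05 there were 355 transcripts, and DESeq2 called 11 transcripts after adjustment, with Myh4 not among them.

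Myh1, the IIx isoform, had 13, 2, 9 and 14 counts in WT and 6, 20, 11 and 0 counts in Rpl3l KO. In CPM the WT hearts ran from 0.453 to 3.62 and the Rpl3l KO hearts from 0 to 1.15. Myh2, the IIa isoform, had 4, 2, 7 and 13 counts in WT and 3, 14, 9 and 3 counts in Rpl3l KO. Myh8, the perinatal isoform, had 2, 0, 0 and 6 counts in WT and 1, 6, 6 and 5 counts in Rpl3l KO. The groups overlapped for each of these 3 genes. Two-sided exact permutation tests of the CPM gave p = 0.171 for Myh1, 0.0571 for Myh2 and 0.857 for Myh8, and adjusted over these 3 tests the values were 0.257, 0.171 and 0.857. The smallest p that 4 against 4 hearts allow is 0.0286. For Myh3, the embryonic isoform, 0 counts allow a level of up to 0.110 CPM in the WT hearts together and 0.0468 CPM in the Rpl3l KO hearts together, by counting error alone.

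Other genes of fast skeletal fibres were present at low levels in the same libraries, and their part in the Myh4 level was not tested. Of the list of 12 fibre markers 5 were in the table, and 0 were at 0 counts in every heart library. Their summed level ran from 3116 to 3942 CPM in WT and from 3110 to 3772 CPM in Rpl3l KO, almost all of it from Ckm, the muscle creatine kinase that heart muscle also uses. Without Ckm, the sum of Tnnt3, Tnni2, Mylpf and Cacna1s ran from 48.5 to 72.3 CPM in WT and from 36.1 to 55.3 CPM in Rpl3l KO. Mylpf, the fast regulatory light chain, was at 13.1, 1.58, 5.42 and 6.55 CPM in the 4 WT hearts and at 3.42, 7.56, 2.50 and 2.65 CPM in the 4 Rpl3l KO hearts. In each genotype, the heart with the highest Mylpf also had the highest Myh4. Tnnt3 and Tnni2 were highest in the same hearts as well, at 22.5 and 12.2 CPM in WT and at 15.6 and 11.6 CPM in Rpl3l KO. Cacna1s, the skeletal calcium channel, was instead highest where Myh4 was lowest, at 27.4 CPM in WT and 22.0 CPM in Rpl3l KO. In Rpl3l KO Ckm was highest in the heart with the highest Myh4, and in WT it was highest in a heart where Myh4 was neither highest nor lowest. Per kilobase of transcript, the order of RNA levels was Myh4, Myh1, Myh2, Myh8 and Myh3 in both genotypes. Myh4, at 1.71 ± 0.704 CPM per kb in WT (SD, n = 4), stood apart from Myh1, whereas Myh1 and Myh2, and Myh2 and Myh8, overlapped between hearts.

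**Figure D1:**
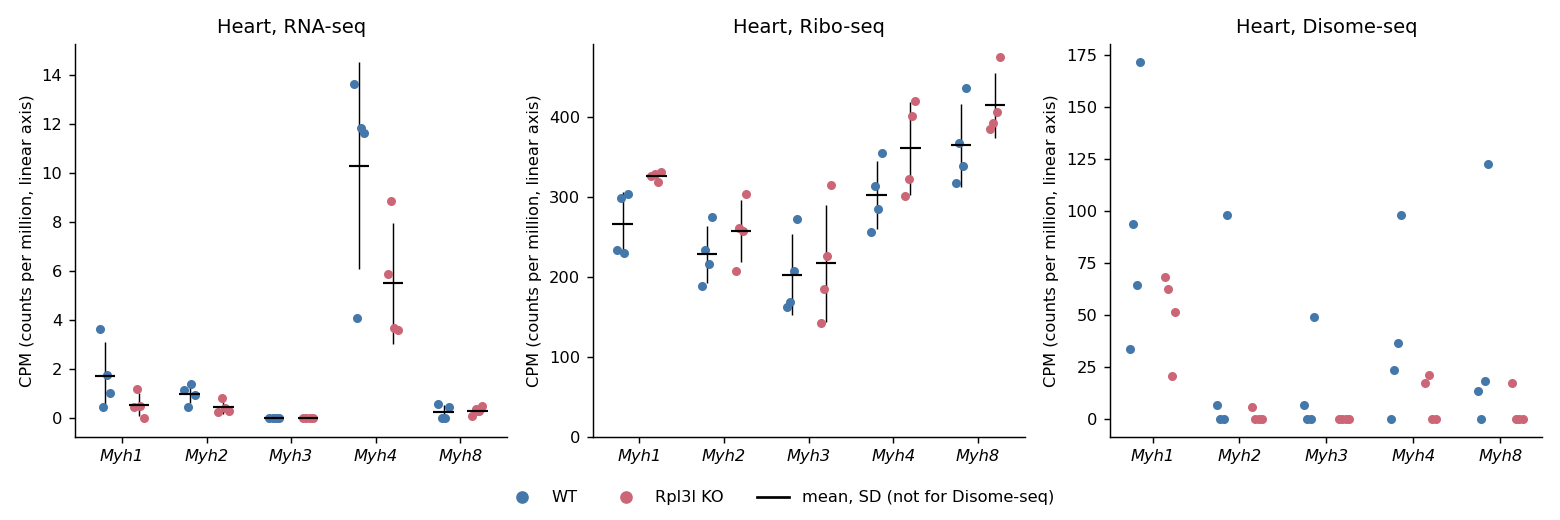
CPM (linear axes, a different scale in each panel) of the 5 genes in each heart library, with points for single mice (4 WT, 4 Rpl3l KO) and the mean with SD for RNA-seq and Ribo-seq. RNA-seq levels stay below 14 CPM and Myh3 is at 0, while every Ribo-seq level lies between 142 and 475 CPM.

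Ribo-seq of the same tissue gave from 274 to 1012 counts for every gene in every heart. Myh1 had 747, 731, 541 and 570 counts in WT and 628, 765, 513 and 557 counts in Rpl3l KO. Myh3, without a single RNA-seq count, had 518, 413, 488 and 510 counts in WT and 274, 428, 363 and 529 counts in Rpl3l KO. Myh8 was highest, with 1012, 900, 797 and 817 counts in WT and 742, 912, 653 and 798 counts in Rpl3l KO. Myh2 ran from 509 to 602 counts in WT and from 400 to 607 in Rpl3l KO. Myh4 ran from 665 to 816 counts in WT and from 580 to 749 in Rpl3l KO.

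The order of the genes differed from that of RNA-seq. Per kilobase of coding sequence, WT Ribo-seq levels were 62.8 ± 8.91 CPM per kb for Myh8, 52.0 ± 7.27 for Myh4, 45.8 ± 6.89 for Myh1, 39.2 ± 6.16 for Myh2 and 34.8 ± 8.67 for Myh3 (SD, n = 4). Each neighbour in this order overlapped the next between hearts. The order was the same in Rpl3l KO, and there only Myh1 and Myh2 stood apart.

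The Ribo-seq level was set against the RNA-seq level, both in CPM, as a ratio of group means. Over the 12515 transcripts that averaged 10 or more counts in each of these assays of WT heart, the median ratio was 1.43 and the 99th percentile 9.51. Myh4 had a ratio of 29.4 in WT (pooled counts, exact 95% interval 24.5 to 31.3), and 4 of the 12515 transcripts were at or above it. This count did not leave out Myh4 itself, whose 2 transcripts in the set carried the same counts. Myh1 had a ratio of 157 and Myh2 of 237, where the highest ratio among the 12515 transcripts was 52.1. Myh1 and Myh2 averaged under 10 RNA-seq counts, though, so that they did not belong to that set. Myh8 reached 1484, with an interval of 616 to 2818 from 8 RNA-seq counts. For Myh3, at 0 counts in RNA-seq, the ratio was at least 1838, against a floor of 3 counts over the WT group. In Rpl3l KO hearts the ratios were 625 for Myh1, 603 for Myh2, 65.9 for Myh4 and 1449 for Myh8, and at least 4637 for Myh3, a bound that depends on the depth of the RNA-seq libraries. The median in Rpl3l KO was 1.44 over 12094 transcripts. The genes were also set beside transcripts that averaged under 10 RNA-seq and 10 or more Ribo-seq counts, with an RNA-seq count of 0 set to the floor. In WT heart there were 493 such transcripts of other genes, with a median ratio of 9.39. At or above the ratio of the gene were 30 of these for Myh1, 22 for Myh2, 5 for Myh8 and 5 for Myh3. In Rpl3l KO there were 125 with a median of 151, of which 16 were at or above Myh1, 17 at or above Myh2, 6 at or above Myh8 and 4 at or above Myh3. Both sets included Myh13, another skeletal myosin, by 2 transcripts with identical counts. Its ratio was at least 2605 in WT and at least 6822 in Rpl3l KO, above the values given for the 5 genes. Single libraries moved some ratios of the 5 genes by more than 1.5 times. Without WT RNA-seq replicate 1 the ratio was 251 for Myh1 and 2562 for Myh8, and without Rpl3l KO RNA-seq replicate 2 it was 1047 for Myh1. The intervals cover counting error only.

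Myosin genes outside this group gave a comparison. Myh13 had 0 RNA-seq counts in WT heart against 2776 Ribo-seq counts. Myh7b, a slow-type isoform with RNA in heart, had a ratio of 2.34 in WT, and the nonmuscle Myh10 had a ratio of 1.88. Myh15, which shares 0 windows of 28 bases with any other myosin heavy chain gene, had 38 Ribo-seq counts over the 4 WT hearts and 0 RNA-seq counts. Its ratio against the floor was at least 35.6 in WT, where 2 of 12515 transcripts were at or above it. In Rpl3l KO it was at least 59.0, on 20 Ribo-seq counts. The WT bound was above the ratio of 29.4 for Myh4.

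**Figure D2:**
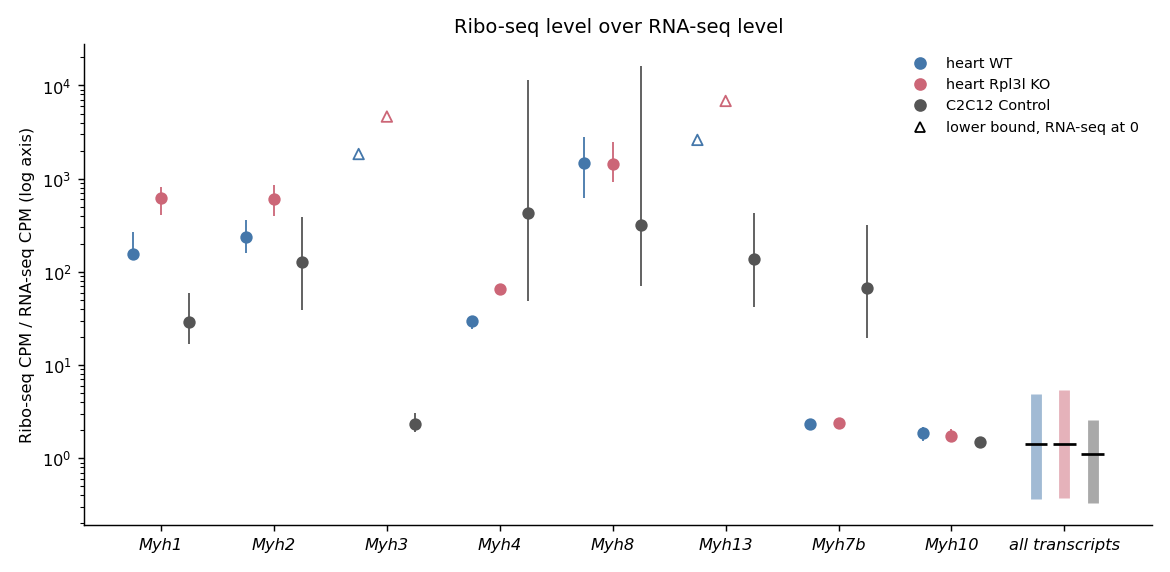
Ratio of mean Ribo-seq CPM to mean RNA-seq CPM (log axis) in WT heart, Rpl3l KO heart and Control C2C12, with exact 95% counting intervals of the pooled counts; open triangles are lower bounds where RNA-seq was at 0, and bars at the right span the 5th to 95th percentile of all transcripts with their median. In heart the 5 genes lie at 29.4 or above, over the medians of 1.43 and 1.44.

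Among the 8 sarcomeric genes in the table, the mean WT Ribo-seq level was set against the number of 28-base windows identical in Myh6 or Myh7. Myh8, with 79 windows, had 365 CPM, and Myh4, with 56 windows, had 302 CPM. Myh2, with 47 windows, had 228 CPM. Myh1 had 267 CPM with 42 windows and Myh3 had 203 CPM with 37 windows. Myh15 had 3.93 CPM with 0 windows. Over these 8 genes Spearman's rho was 0.976 and Pearson's r 0.952, and over the 5 skeletal genes rho was 0.900 and r 0.933. With 1 mismatch allowed, rho was 0.714 and r 0.903 over the 8 genes, and 0.600 and 0.553 over the 5. With 2 mismatches allowed, rho was 0.667 and r 0.883 over the 8 genes, and 0.400 and 0.386 over the 5. The order of the 5 genes was thus close to that of their windows at 0 mismatches and less so when mismatches were allowed. These are descriptions across genes measured in the same 4 libraries, and genes are not independent replicates. The level per identical window was 4.62 CPM for Myh8, 4.86 for Myh2, 5.40 for Myh4, 5.48 for Myh3 and 6.35 for Myh1. Outside the 5 genes it was 5.32 CPM for Myh13, with 54 windows and 287 CPM, and 11.8 CPM for Myh7b, with 14 windows and 165 CPM beside an RNA-seq level of 70.6 CPM. Where along each gene the footprints lay cannot be read from counts per transcript, and whether they came from Myh6 or Myh7 mRNA was not tested.

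Only Myh8 had transcripts with different counts, which gave a coarse view along the gene. A short transcript at chr11:67277418-67282148 covers the 5′ end of Myh8. Its exons hold 8.79% of the coding bases of the full transcript. They hold 12 of the 79 windows identical in Myh6 or Myh7, or 15.2%. In WT heart Ribo-seq the short transcript had from 26.2% to 35.6% of the count of the full transcript (median 31.4%, n = 4), and in Rpl3l KO from 29.5% to 41.8% (median 36.7%, n = 4). In Control C2C12 Ribo-seq it had 3 counts beside 72 of the full transcript, and in heart RNA-seq it had 0. The short transcript also has exon sequence that the full transcript lacks, so its counts need not all lie in the shared exons, and where they lay was not tested.

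**Figure D3:**
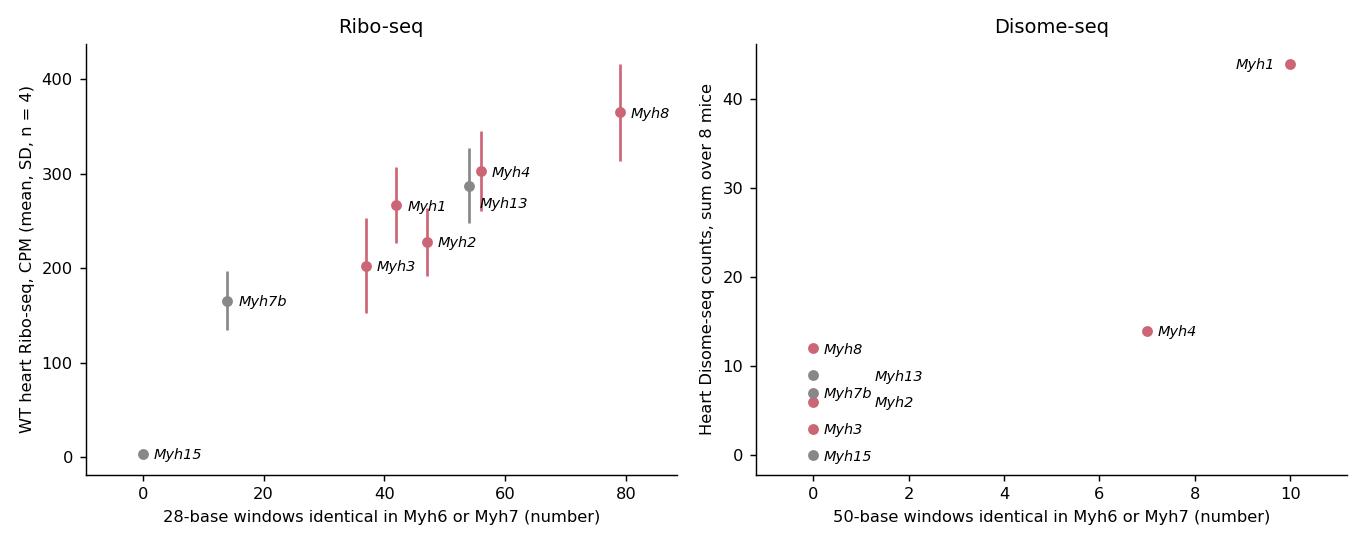
Left, mean WT heart Ribo-seq level in CPM (bars, SD over 4 mice) against the number of 28-base windows identical in Myh6 or Myh7; right, Disome-seq counts summed over 8 mice against the number of 50-base windows. The 5 skeletal genes (red) rise from Myh3, with 37 windows and 203 CPM, to Myh8, with 79 windows and 365 CPM; grey points are Myh13, Myh7b and Myh15.

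In Rpl3l KO hearts the mean Ribo-seq level of each of the 5 genes was above that in WT, and 0 of the 5 passed the threshold. This stands beside 0.654% of the 12695 transcripts tested. In CPM, Myh1 was at 234, 299, 230.0 and 304 in WT and at 326, 329, 319 and 332 in Rpl3l KO. The 4 Rpl3l KO hearts were all above the 4 WT hearts, as were 3.43% of all transcripts tested. Its log2 fold change was 0.32 (SE 0.10), with an unadjusted p of 0.00625 and an edgeR adjusted p of 0.139. Myh4 was at 256, 314, 285 and 355 CPM in WT and at 301, 322, 401 and 419.6 CPM in Rpl3l KO, and these ranges overlapped. The log2 fold changes were 0.29 (SE 0.13) for Myh4, 0.22 (SE 0.11) for Myh8, 0.21 (SE 0.13) for Myh2 and 0.13 (SE 0.21) for Myh3. Their edgeR adjusted p-values were 0.285, 0.350, 0.460 and 0.804. The median of the 5 genes was 0.22, beside a median of -0.0019 over all transcripts tested. At unadjusted p under 0.05 edgeR called 2095 transcripts, among them Myh1 and Myh4, and DESeq2 called 185 transcripts after adjustment, with 0 of the 5 genes. Since the genes share sequence with each other, their fold changes are not separate observations.

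Translation efficiency (TE, the change in Ribo-seq beyond that in RNA-seq) could be tested only for Myh4. Its log2 change in Rpl3l KO was 1.16 (SE 0.38), with an unadjusted p of 0.00613 and an edgeR adjusted p of 0.520. Of 12483 transcripts tested 0 passed (0%), with 798 at an unadjusted p under 0.05 and 22 by DESeq2. The Ribo-seq part of this value carries the sharing of sequence described above. Tnnt3, the fast troponin T, had a TE change of 1.84 (SE 0.57), and its edgeR adjusted p was 0.465. It is 1 of 5 skeletal fibre markers tested, whose median TE change was 0.90, beside -0.0096 over all transcripts tested. Of these 5 markers 0 passed.

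Disome-seq was shallow for these genes. Myh1 had 5, 4, 7 and 7 counts in WT and 12, 6, 1 and 2 counts in Rpl3l KO, and the groups overlapped in CPM. Over all 8 mice Myh1 had 44 counts, Myh4 14, Myh8 12, Myh2 6 and Myh3 3. None of the 5 averaged 10 counts, so 0 entered the fit, in which 0.147% of 1365 transcripts passed. Two-sided exact permutation tests of the CPM gave p = 0.257 for Myh1, 0.200 for Myh4, 0.257 for Myh8, 0.429 for Myh2 and 0.429 for Myh3, and 0.429 for each when adjusted over these 5 tests. The smallest p that 4 against 4 mice allow is 0.0286. Windows of 50 bases identical in Myh6 or Myh7 numbered 10 in Myh1, 7 in Myh4 and 0 in the other 3 genes.

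Genes that build, fold and regulate the same filament were followed in the heart as well, from lists that count every listed gene whether it moved or not. In Ribo-seq 0 of 11 tested genes for myosin light chains and the thick filament passed, 0 of 6 for myosin folding and assembly, 0 of 7 for the skeletal thin filament and its coupling, 0 of 5 myogenic regulators and 0 of 3 other myosin heavy chains. This stands beside the 0.654% of all transcripts that passed. Their median log2 changes were 0.15, 0.10, 0.15, 0.15 and 0.18. Markers of the cell types that heart tissue holds were counted in the same way, and 0 passed in each list. Their median log2 changes in Ribo-seq were 0.27 for 5 skeletal fibre genes, 0.08 for 6 cardiomyocyte genes, -0.18 for 4 atrial genes, 0.74 for 2 smooth muscle genes, -0.05 for 5 fibroblast genes and 0.18 for the 1 myoblast gene tested. The part of these cell types in the levels of the 5 genes was not tested. In RNA-seq 0 genes of these lists passed, and Mylpf had a log2 change of -0.64 (SE 0.48, edgeR adjusted p = 0.999). The median RNA-seq log2 change of the 5 skeletal fibre genes, Mylpf among them, was -0.28. Ckm went the other way in mean level, with 3347 CPM in WT and 3504 CPM in Rpl3l KO. Myh7b and Myh13 had Ribo-seq log2 changes of 0.25 (SE 0.12, edgeR adjusted p = 0.310) and 0.18 (SE 0.11, edgeR adjusted p = 0.430), close in size to those of the 5 genes. No m6A peak of the 3181 in the deposited list lay in any of the 5 genes, while Myh6 had 9 and Myh7 had 5.

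In C2C12, Myh3 was the skeletal myosin with the most RNA. Its RNA-seq counts were 65, 61 and 99 in Control, 21, 19 and 32 in RPL3 OE and 28, 29 and 29 in RPL3L OE. In CPM this was 4.13, 4.26 and 3.33 in Control, 2.75, 2.22 and 2.74 in RPL3 OE and 3.46, 3.32 and 2.98 in RPL3L OE. The 3 RPL3 OE cultures were below the 3 Control cultures, as were 16.1% of transcripts tested, and below the 3 RPL3L OE cultures, while Control and RPL3L OE overlapped. The log2 fold change of Myh3 was -0.56 (SE 0.23, edgeR adjusted p = 0.0930) in RPL3 OE against Control and -0.24 (SE 0.23, edgeR adjusted p = 0.585) in RPL3L OE against Control. Between RPL3L OE and RPL3 OE it was 0.32 (SE 0.27, edgeR adjusted p = 0.403), where the RPL3L OE cultures were all higher, as were 20.1% of transcripts tested. Myh3 thus passed in 0 of the 3 comparisons by edgeR and by DESeq2, with an unadjusted p of 0.0186 in RPL3 OE against Control, beside 15.9%, 9.05% and 26.6% of 14432 transcripts. Both comparisons against Control share its cultures, and the comparison of RPL3L OE with RPL3 OE shares a group with each of them.

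The other 4 genes were near 0 in C2C12 RNA-seq. Myh1 had 6, 2 and 5 counts in Control, 0, 0 and 2 in RPL3 OE and 3, 3 and 6 in RPL3L OE. Myh2, Myh4 and Myh8 had from 0 to 3 counts in a library, and all 3 were at 0 in every RPL3L OE culture. Per kilobase of transcript, Myh3 was at 0.652 ± 0.0841 CPM per kb in Control (SD, n = 3) and Myh1, next in order, at 0.0387 ± 0.0222.

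**Figure D4:**
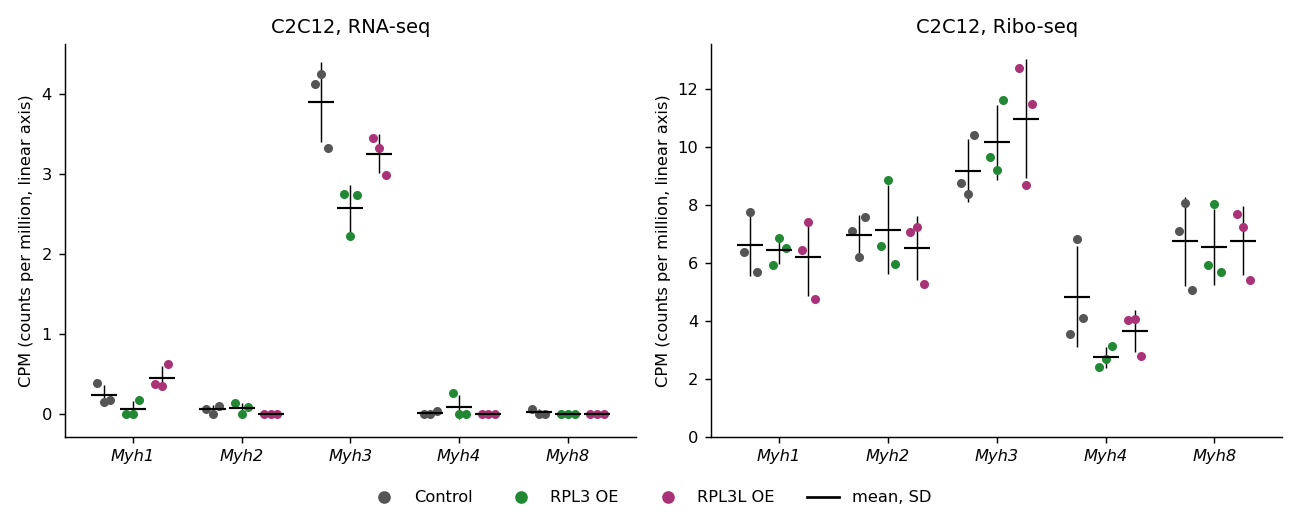
CPM (linear axes, a different scale in each panel) of the 5 genes in each C2C12 library, with points for single cultures (3 per group) and the mean with SD. In RNA-seq Myh3 lies between 2.22 and 4.26 CPM and the other genes below 1 CPM; in Ribo-seq all 5 genes lie between 2.41 and 12.7 CPM.

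Ribo-seq of C2C12 gave from 11 to 70 counts for each gene in each library, at levels far below those of heart. Myh3 was at 8.75, 8.36 and 10.4 CPM in Control, 9.65, 9.21 and 11.6 CPM in RPL3 OE and 12.7, 8.70 and 11.5 CPM in RPL3L OE. Myh4 was at 3.55, 6.82 and 4.10 CPM in Control, 2.41, 2.68 and 3.12 CPM in RPL3 OE and 4.03, 4.07 and 2.79 CPM in RPL3L OE. The RPL3 OE cultures lay below all Control cultures for Myh4, as for 10.2% of transcripts tested. Its log2 fold change there was -0.83 (SE 0.33, edgeR adjusted p = 0.107), on counts of 11 to 22. Of the 5 genes 0 passed in each of the 3 comparisons by edgeR and by DESeq2, with Myh4 in RPL3 OE against Control at an unadjusted p of 0.0168, beside 10.9% of 13802 transcripts for RPL3 OE against Control, 11.0% for RPL3L OE against Control and 18.6% between both overexpressing groups. The other 4 genes changed by -0.05, 0.05, 0.10 and -0.04 (Myh1, Myh2, Myh3, Myh8) in RPL3 OE against Control on the log2 scale, with SEs of 0.20 to 0.24. In RPL3L OE against Control the values were -0.12, -0.13, 0.24, -0.42 and -0.04 for Myh1, Myh2, Myh3, Myh4 and Myh8.

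For Myh3, the 1 gene with enough RNA for a TE test in C2C12, the log2 change was 0.66 (SE 0.30, edgeR adjusted p = 0.567) in RPL3 OE and 0.47 (SE 0.29, edgeR adjusted p = 0.453) in RPL3L OE against Control, and -0.19 (SE 0.31, edgeR adjusted p = 0.900) between RPL3L OE and RPL3 OE. These stand beside 0.0520%, 2.34% and 0.438% of 13457 transcripts passing. The ratio of Ribo-seq to RNA-seq in Control was 2.35 for Myh3, with a median of 1.10 over 13070 transcripts. For Myh1 it was 28.8 (exact 95% interval 16.6 to 59.7, 13 RNA-seq counts) and for Myh2 127 (39.0 to 392, 4 RNA-seq counts). Without Control RNA-seq replicate 3 the ratio of Myh2 was 219. Myh4 and Myh8 held 1 RNA-seq count each in Control. Footprint levels were 4.82 to 6.96 CPM for Myh1, Myh2, Myh4 and Myh8. Rpl3l and cardiomyocyte markers with little or no RNA in Control also had Ribo-seq counts there. Their mean Ribo-seq levels were 9.21 CPM for Mybpc3, 6.36 for Rpl3l, 3.97 for Nppa, 2.41 for Myl2, 1.12 for Myl3 and 0.0788 for Pln. In Control RNA-seq Rpl3l averaged 0.363 CPM, Myl2 0.0560 CPM and Mybpc3, Nppa, Myl3 and Pln 0 CPM. Where such footprints came from was not tested. Over the 252 transcripts of other genes in Control with under 10 RNA-seq and 10 or more Ribo-seq counts on average, the median ratio was 97.9, and 203 were at or above Myh1 and 106 at or above Myh2. The 252 included Myh13, with a ratio of 136, and Myh7b, with 67.0. Myh4 had a ratio of 430 with 26 of the 252 at or above it, and Myh8 had 318 with 38. The ratios of Myh1, Myh2, Myh4 and Myh8 thus lay within the range of transcripts with few RNA-seq counts, with Myh4 and Myh8 nearer its top.

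**Figure D5:**
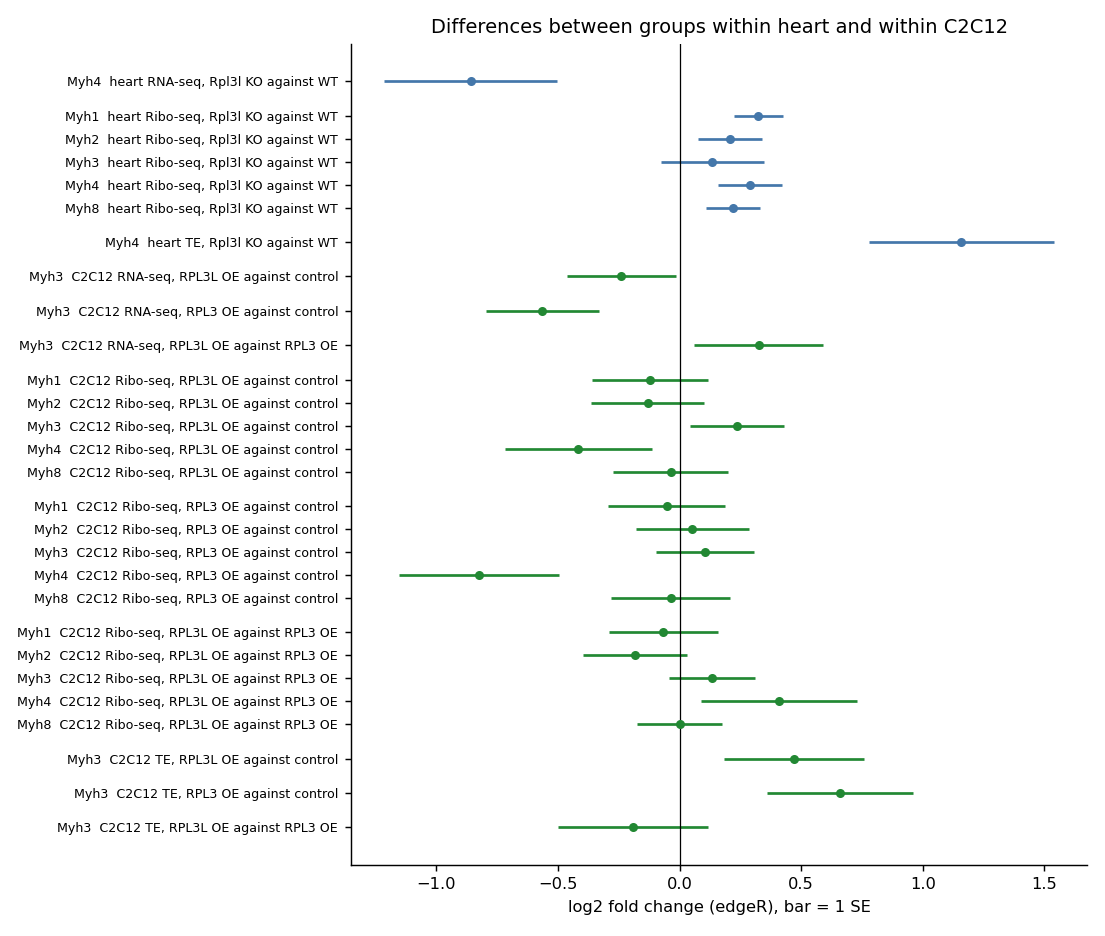
Log2 fold changes from edgeR with bars of 1 SE for every test of the 5 genes within heart (blue) and within C2C12 (green), where positive values are higher in the group named first. In Rpl3l KO against WT the Ribo-seq values run from 0.13 for Myh3 to 0.32 for Myh1, and Myh4 is at -0.86 in RNA-seq; 0 of these tests passed the adjusted threshold.

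In the same C2C12 comparisons, other genes of the muscle program and of the same filament did pass the test, where 10.9% of transcripts passed in RPL3 OE and 11.0% in RPL3L OE against Control. In RPL3 OE against Control, 4 of 7 tested myogenic regulators fell in Ribo-seq. These were Myod1, the regulator that commits cells to muscle (log2 change -0.72, SE 0.06), Cdon, a cell surface protein that promotes myogenesis (-0.63, SE 0.09), and Id1 (-0.73, SE 0.08) and Id3 (-0.65, SE 0.06), inhibitors of Myod1 family factors. In RPL3L OE against Control, 2 of the 7 fell, namely Id1 (-0.45, SE 0.07) and Id3 (-0.42, SE 0.05). Of 8 tested light chain and thick filament genes, 3 rose and 1 fell in RPL3L OE, and 1 rose and 2 fell in RPL3 OE. Mylpf rose by 0.44 (SE 0.10) in RPL3L OE, and Mylk2, the skeletal myosin light chain kinase, fell by 1.75 (SE 0.34) in RPL3 OE, both on the log2 scale. Of 4 tested folding and assembly genes, 3 fell in each comparison, among them Cryab, a small heat shock protein, with -0.50 (SE 0.05) in RPL3L OE and -0.28 (SE 0.05) in RPL3 OE. In the skeletal thin filament list 1 of 7 tested genes rose in RPL3 OE, Eno3, the muscle enolase, and 0 passed in RPL3L OE. The median log2 change of the regulators was -0.63 in RPL3 OE and -0.06 in RPL3L OE.

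The summed level of the 3 myoblast markers in the table, Myod1, Des and Cdh15, also differed between the groups of C2C12 RNA-seq. It ran from 480 to 500.1 CPM in Control, from 315 to 347 CPM in RPL3 OE and from 563 to 579 CPM in RPL3L OE, with 0 of the 3 genes at 0 counts in any group. The 5 fibroblast markers, all in the table and 0 of them at 0 counts in any group, summed to 963 to 1018 CPM in Control, 1445 to 1467 CPM in RPL3 OE and 1101 to 1110.1 CPM in RPL3L OE. Col1a1, a chain of type I collagen, averaged 339, 764 and 421 CPM in these groups. Of 6 smooth muscle markers Cnn1 and Lmod1 were in the table, and their sum ran from 2.54 to 5.31 CPM in Control, from 7.61 to 14.4 CPM in RPL3 OE and from 5.81 to 8.14 CPM in RPL3L OE. The part of these markers in the levels of Myh3 and the other genes was not tested.

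WT heart and Control C2C12 were compared next. They differ in strain, culture and handling as well as in cell type, which cannot be told apart. In RNA-seq, Myh3 was at least 35.4-fold lower in heart, against a floor of 3 counts over the WT group. Myh4 was 640-fold higher in heart on pooled counts, with a wide interval of 114 to 25347 because Control held 1 count. Myh1 was 6.42-fold higher (3.35 to 13.1), Myh2 14.3-fold (4.96 to 56.3) and Myh8 17.6-fold (2.36 to 780.2, on 8 and 1 counts). Myh3 met the count minimum of the edgeR fit only through C2C12, with 225 counts against 0, and Myh4 only through heart, with 291 counts against 1. Their calls therefore had to follow and nothing is read from them, beside 81.8% of 15835 transcripts that passed. In Ribo-seq all 5 genes were higher in heart, and 5 of 5 passed, beside 83.9% of 14250 transcripts. The log2 differences were 5.63 for Myh1, 5.32 for Myh2, 4.75 for Myh3, 6.29 for Myh4 and 6.04 for Myh8, with SEs of 0.16 to 0.20, against a median of -0.11 over all transcripts tested. Myh3 thus lay in opposite directions in the assays, lower in heart RNA-seq and higher in heart Ribo-seq. The same 2 genes entered the TE fit through the same counts, so nothing is read from their calls, beside 47.8% of 13989 transcripts that passed. Myh4 had a TE difference of -2.55 (SE 0.92, edgeR adjusted p = 0.0274), which rested on 1 RNA-seq count in Control and lost the call when any of the 3 Control replicates was left out. For Myh3 the ratio of Ribo-seq to RNA-seq was at least 1838 in WT heart and 2.35 in Control C2C12.

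Across all 34 RNA-seq and Ribo-seq libraries, Myh1, Myh2 and Myh8 resembled each other and Myh13, and Myh3 and Myh4 did so less. Pearson's r of log2 CPM was 0.990 between Myh2 and Myh8, 0.988 between Myh1 and Myh2 and 0.981 between Myh1 and Myh8. Myh4 and Myh3 were the least alike pair, with r of 0.604. Within the group, Myh3 was most like Myh8 (r 0.882) and Myh4 most like Myh2 (r 0.917), both below genes outside the group. Outside the group, the gene most like Myh8 was Myh13 (r 0.992), and the same gene was most like Myh2 (r 0.982). Fbxo21 was most like Myh1 (r 0.979), Ube3a most like Myh3 (r 0.976) and Psap most like Myh4 (r 0.988). The points share tissue and assay, and they are given with no test.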

How the data were processed

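RNA-seq, Ribo-seq and Disome-seq libraries were grouped by their labels, and RNA-seq was made from poly(A) RNA with a directional kit. The authors deposited counts of reads for each transcript. For Ribo-seq and Disome-seq they trimmed reads with cutadapt, removed rRNA reads, aligned the rest with STAR to GRCm38.p6 transcripts and the mm10 genome with multiple mappings allowed and removed duplicates by UMI. The submitters' processing notes also name featureCounts. Versions, the RNA-seq read length and how reads with several matches were counted are not given in the sources used here. For m6A-seq the authors deposited counts and TPM per peak, of which only the gene names of peaks were used. tRNA-seq was not used here.

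Each of the 23877 transcripts stood on 2 identical lines, of which 1 was used. GENCODE M21 gave names and positions for 23662, all on the plus strand. The 2 runs of each Disome-seq mouse were summed. Members and gene lists were chosen with earlier results of these data known. The text names the 5 genes, Rpl3l, the other myosin heavy chains in the table, at most 5 genes of a list past the threshold by smallest p, and the most similar genes. Marker genes and the values of Tnnt3 and Mylpf in heart were chosen after their values were seen.

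Counts were fitted with edgeR 4.0.16 (R 4.3.3, quasi-likelihood test, TMM factors within an assay), keeping transcripts whose counts averaged 10 or more in every assay fitted, with Benjamini-Hochberg adjustment over all transcripts and a threshold of 0.05. TE was tested as an interaction between group and assay. C2C12 fits held all 3 groups, and the replicate number was not in the model. The fits were tested on simulated data. DESeq2 1.42.0, other filters and scalings, 1 transcript per gene, single replicates left out and a replicate block were alternatives. Depth, as total counts, limits precision, and intervals and floors (3 counts) cover counting error only. The study calls its C2C12 replicates biologically independent samples, and p-values measure the spread between these mice or cultures. Sequence identity was counted on GENCODE M21 coding sequences.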

Additional observations from a re-analysis of the deposited data

Results flagged for a closer look

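In Disome-seq of the heart, a single mouse stood apart from the other 3 of its group in 5 of the 27 gene, assay and genotype groups of 4 examined in heart, by the gap to the nearest mouse as a share of the range. Myh2 was at 98.1 CPM in 1 WT mouse (4 counts) and at 5.69 CPM in 1 Rpl3l KO mouse (1 count). Myh3 was at 49.0 CPM in 1 WT mouse (2 counts). Myh8 was at 123 CPM in 1 WT mouse (5 counts) and at 17.1 CPM in 1 Rpl3l KO mouse (3 counts). The WT mouse was the same for all 3 genes and had the smallest WT Disome-seq library, with 40786 counts. Chance marks about 1 in 20 groups of continuous values, a rate that does not hold here. Where the other mice are at 0 counts, a single mouse with any count always stands apart, and each value rests on at most 5 counts.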

How the results depend on the processing

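Within heart and within C2C12, 0 of the 5 genes passed under every alternative run, and with any 1 replicate left out the count stayed from 0 to 0. Between WT heart and Control C2C12, RNA-seq calls were 2 with each replicate left out, 4 with transcripts of 10 or more counts in total kept, and 0 at an average of 50, where 0 of the 5 genes were tested. Ribo-seq calls between the tissues were 5 in all leave-out fits. TE calls between the tissues were 0 at an average of 50, 1 with library totals in place of TMM and from 1 to 2 with a replicate left out. The lost call was Myh4, with -2.32 (edgeR adjusted p = 0.0581) on library totals, -2.47 (0.0586) without Control replicate 1, -1.98 (0.115) without Control replicate 2 and -3.17 (0.0618) without Control replicate 3.

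The sign of 19 values changed, each with an edgeR or DESeq2 adjusted p of 0.69 or more. With a replicate left out, log2 fold changes ran from -0.13 (without Rpl3l KO replicate 4) to 0.28 for Myh3 in heart Ribo-seq. In C2C12 Ribo-seq, RPL3L OE against Control, they ran from -0.28 to 0.061 for Myh1, from -0.22 to 0.023 for Myh2 and from -0.19 to 0.12 for Myh8. In RPL3 OE against Control they ran from -0.13 to 0.071 for Myh1, from -0.16 to 0.13 for Myh2 and from -0.24 to 0.10 for Myh8. In RPL3L OE against RPL3 OE they ran from -0.22 to 0.11 for Myh1, from -0.27 to 0.034 for Myh2 and from -0.10 to 0.20 for Myh8, which was also 0.0084 by DESeq2 and 0.0032 with 1 transcript per gene. The causes were not tested.

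Between groups the replicate numbers were taken as shared numbers only: same-numbered WT and Rpl3l KO hearts correlated from -0.282 to 0.333 in Ribo-seq, and 1 of 4 correlated best with its own number. Between RNA-seq and Ribo-seq, same-numbered WT hearts correlated from 0.208 to 0.307, each best with its own number, Rpl3l KO hearts from -0.768 to 0.763 (2 of 4) and Control C2C12 from 0.0536 to 0.122 (3 of 3). With a replicate block, 0 of the 5 genes passed in any comparison within a tissue, Myh8 in RPL3L OE against RPL3 OE was at 0.049, and Myh1 in heart Ribo-seq was at 0.33 (SE 0.10, edgeR adjusted p = 0.128). The blocked TE changes were 1.17 for Myh4 in heart (edgeR adjusted p = 0.797) and 0.71 for Myh3 in RPL3 OE against Control (edgeR adjusted p = 0.469). The blocked heart TE fit pairs RNA-seq and Ribo-seq by number. Rpl3l KO numbers 1 and 4 correlated at 0.763 and 0.635, but numbers 2 and 3 at -0.717 and -0.768. Numbers 2 and 3 did not correlate best with their own number, so their pairing is doubtful, which limits this fit. The labels alone do not show whether they mark the same mice in both assays. The block moved all-transcript calls from 83 to 85 in heart Ribo-seq and from 7 to 14 in the TE of RPL3 OE against Control, which DESeq2 put at 21 and library totals at 13. DESeq2 called 185 transcripts in heart Ribo-seq against 83, 22 in heart TE against 0 and 11 in heart RNA-seq against 2. In C2C12 Ribo-seq it called 675, 718 and 1220 against 1512, 1508 and 2568. No block could be made between tissues, whose replicate numbers mark different sources. Counts were few in RNA-seq of Myh1, Myh2, Myh3 and Myh8 and in Disome-seq. The ratios of Ribo-seq to RNA-seq without single libraries, and their comparison with transcripts of few RNA-seq counts, were chosen after seeing the data. In Control C2C12 the ratio of Myh8 was 318, and 212 without RNA-seq replicate 2 or 3.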
